A study of Mus musculus with 2 samples.

Results

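The complement genes described here are C1qa, C1qb and C1qc, which encode the 3 chains of C1q, the central components C3, C4b and Cfb, the regulator Serping1, and the receptors C3ar1 and C5ar1. They were chosen by symbol and are 9 of the 32285 genes counted in the optic nerves of Nf1-OPG mice. In these mice 1 Nf1 allele carries a neomycin cassette, and the floxed other allele is lost through GFAP-Cre in neuroglial progenitors. Both groups share this genotype (Nf1flox/neo; GFAP-Cre), so no group with intact Nf1 is compared. The treated mice were given vancomycin, an antibiotic, between week 6 and week 12. Mice with the label control served as comparison, for which the design text mentions PBS. At 12 weeks nerves were pooled from 10 animals per group, so that each group is 1 single-cell library, made with 10x Genomics 5′ chemistry. With 1 library each there was no replicate spread and no test. Every interval is a 95% interval that covers counting error only, and "higher" or "lower" compares these 2 libraries. A difference between the libraries other than treatment cannot be told apart from it.

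Complement is a cascade of secreted proteins that marks targets and calls in immune cells. C1q binds targets and starts the classical pathway through C4 and C2, and factor B (Cfb) carries the alternative pathway. Both pathways cut C3, which releases C3a, and later C5, which releases C5a. These fragments act on the receptors C3ar1 and C5ar1. C1 inhibitor, encoded by Serping1, blocks the proteases attached to C1q. In the nervous system C1q is known as a product of microglia, and C3 and C4 as genes that glia and immune cells turn up under inflammation.

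The C1q genes lie side by side on chromosome 4, all on the minus strand of mm10 in the GENCODE M21 annotation. C1qb spans 136880129 to 136886187, C1qc 136889804 to 136893065 and C1qa 136895917 to 136898803. Promoters of C1qb and C1qc are shown because the 3 chains had nearly the same pattern over cell types. They come from RefSeq (GRCm38.p6), run 5′ to 3′ along the minus strand, and cover chr4:136886151-136886450 and chr4:136892865-136893164. Capitals mark the core of the site bound by PU.1, a myeloid transcription factor (GAGGAA, either strand).
C1qb promoter: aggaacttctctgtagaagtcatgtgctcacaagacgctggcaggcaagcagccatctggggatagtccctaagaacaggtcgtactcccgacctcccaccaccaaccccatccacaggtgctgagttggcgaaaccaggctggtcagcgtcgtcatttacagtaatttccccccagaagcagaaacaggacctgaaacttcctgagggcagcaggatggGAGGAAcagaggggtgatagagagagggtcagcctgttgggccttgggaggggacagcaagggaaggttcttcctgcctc
C1qc promoter: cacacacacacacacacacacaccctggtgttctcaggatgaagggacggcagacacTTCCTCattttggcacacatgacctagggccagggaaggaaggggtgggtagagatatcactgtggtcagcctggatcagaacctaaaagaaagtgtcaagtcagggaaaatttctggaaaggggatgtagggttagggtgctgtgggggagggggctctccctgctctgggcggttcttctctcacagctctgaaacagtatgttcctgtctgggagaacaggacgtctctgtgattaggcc
Each held 1 match, first base at position -30 from the RefSeq start on the gene's strand in C1qb and at -193 on the opposite strand in C1qc. The RefSeq starts differ from the GENCODE coordinates above, and most of the C1qc window lies inside the GENCODE gene. The same 6 letters were found in 28.3% of 32851 promoters of that length, so a match is common. RefSeq promoters were at hand for 5 of the 9 genes. Those of C3, C3ar1 and C5ar1 held no match to GAGGAA. None of the 5 held, on either strand, a gamma-activated sequence (TTCNNNGAA), a kappaB site (GGGA, any 2 bases, TTCC) or an interferon-stimulated response element (GAAA, any 2 bases, GAAA), which were found in 8.30%, 1.47% and 3.44% of promoters. Nothing about the factors follows from this.

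The vancomycin library had 16596 barcodes and 144451114 UMIs (unique molecular identifiers), and the control library had 4272 barcodes and 25609899 UMIs. After filtering, 15726 and 4108 cells were kept, with medians of 6970.0 and 4870.5 UMIs per cell. Cells were placed by fixed markers into 24 types, called X-like here. This placed 12821 vancomycin cells (81.5%) and 3251 control cells (79.1%). At least 50 cells were found for 16 types in the vancomycin library and for 6 in the control library, and these 6 are compared. Oligodendrocyte-like cells numbered 4172 in the vancomycin library and 0 of 4108 in the control library, which allows a share of up to 0.0730%. Nerves went through dissociation with removal of debris and myelin, so cell shares are not read as tissue composition. The libraries shared 100 barcode sequences, 2.34% of the control barcodes. Hormone cell-like cells, placed by pituitary markers such as Cga and Tshb, numbered 233 in the vancomycin and 10 in the control library. Levels are the UMIs of a gene per 1000000 UMIs of the type (CPM). They are not scaled for gene length, so they are compared between cells and not between genes.

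C1q RNA was highest in microglia-like cells in both libraries. Microglia-like cells (897 vancomycin, 856 control) held C1qa at 8999 CPM in the vancomycin library and 5786 CPM in the control library, and every one of these cells had a C1qa UMI. C1qb was at 7930.2 and 6201 CPM, and C1qc at 6432 and 4669 CPM. Border-associated macrophage-like cells came next, at 7017 CPM of C1qa, 7256 CPM of C1qb and 5659.8 CPM of C1qc in 171 vancomycin cells. The control library held only 11 such cells, with C1qa at 4506 CPM. The intervals of the 2 macrophage types did not overlap for any of the 3 chains in the vancomycin library. All other types of at least 50 cells were at or below 870.0 CPM, the C1qb level of the 65 monocyte-like cells of that library.

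The proportions of the 3 chains differed somewhat by type and library. C1qb UMIs per C1qa UMI were 1.47 (1.37 to 1.58) in type 2 dendritic cell-like cells of the vancomycin library. They were 1.62 (1.37 to 1.93) in its monocyte-like cells. In microglia-like cells 0.881 C1qb UMIs were counted per C1qa UMI in the vancomycin library (interval 0.871 to 0.891), against 1.07 in the control library (1.06 to 1.09). C1qc gave 0.715 and 0.807 per C1qa UMI. The difference between libraries was therefore largest for C1qa, at 1.56 times the control level (1.53 to 1.58), against 1.28 times for C1qb and 1.38 times for C1qc. None of these reached 2-fold. Per cell, the median C1qa level was 7966 CPM in vancomycin and 5397 CPM in control microglia-like cells, and the lower and upper quartiles were 5861 and 10645 CPM in vancomycin and 3720 and 7462 CPM in control cells. Over the 22 combinations of type and library with at least 50 cells, log levels of the chains correlated at r = 0.995 to 0.996. The points share 2 libraries, and no p is given. Of all C1qa UMIs in kept cells, microglia-like cells held 49.7% in the vancomycin and 76.6% in the control library, and unplaced cells held 29.9% and 18.8%.

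**Figure D1:**
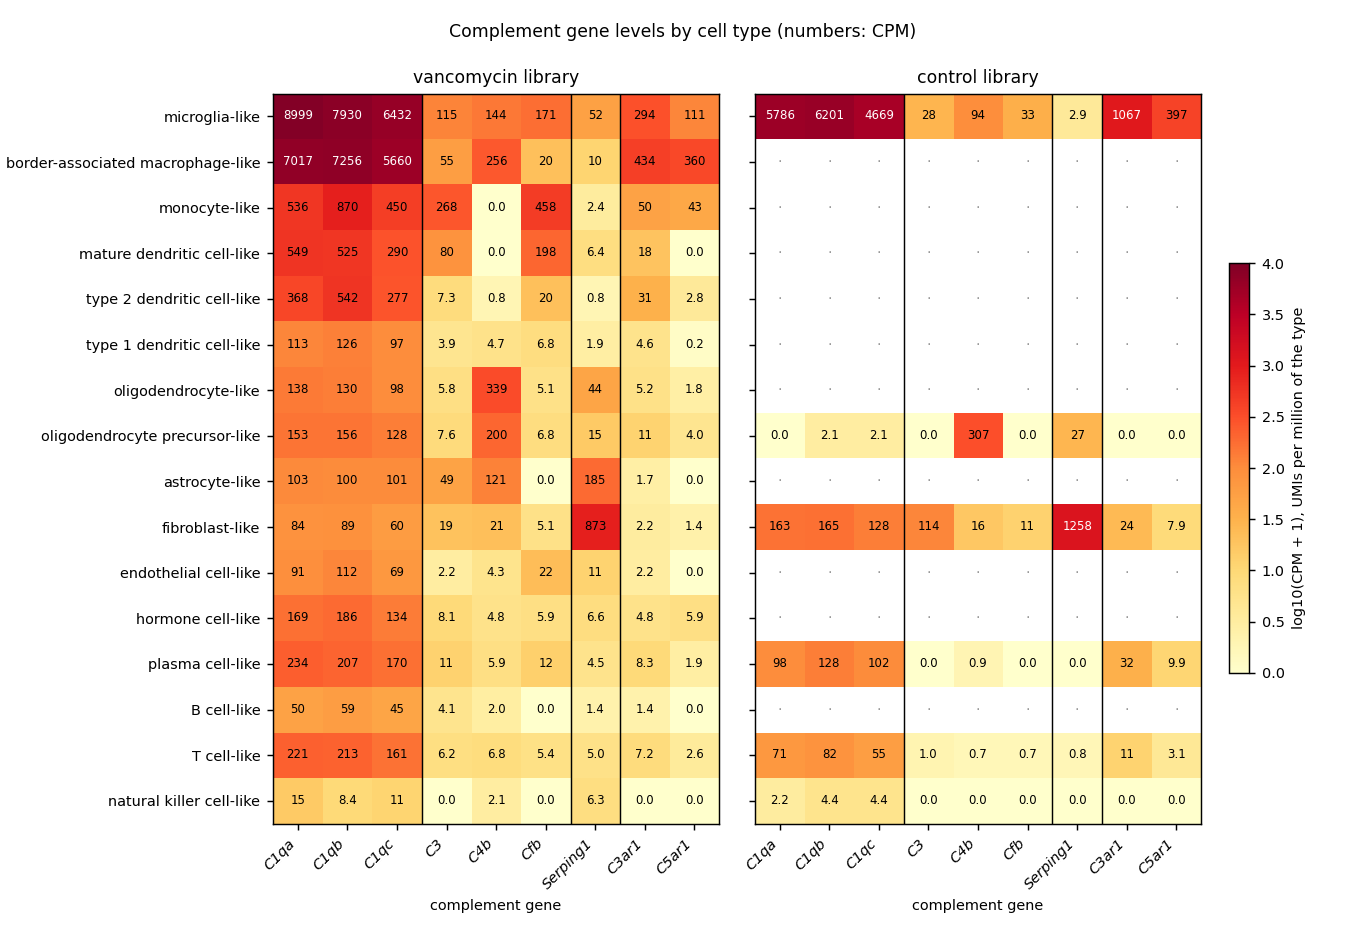
Levels (CPM, UMIs per 1000000 of the type) of the 9 complement genes in types of at least 50 cells, vancomycin library left and control library right, on a log10 colour scale; dots mark types with fewer cells. C1q sits in the 2 macrophage types, C4b in oligodendrocyte-lineage cells and macrophages, and Serping1 in fibroblast-like cells (873 and 1258 CPM).

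C1q UMIs in types other than macrophages mostly sat in few cells. T cell-like cells had C1qa at 221 CPM in the vancomycin library and 70.7 CPM in the control library, but 84 of 3765 vancomycin cells with 10 or more C1qa UMIs held 94.1% of those UMIs, and 20 of 1844 control cells held 81.8%. The median T cell-like cell had 0 C1qa UMIs. The same held for oligodendrocyte-like cells, where 107 of 4172 cells held 95.4%, and for plasma cell-like cells, where 46 of 747 vancomycin cells held 97.1% and 5 of 91 control cells held 88.0%. Some myeloid types were broader, with a C1qa UMI in 19 of 65 monocyte-like and 85 of 365 type 2 dendritic cell-like cells of the vancomycin library. Other myeloid types of that library were not. A C1qa UMI was found in 26 of 400 type 1 dendritic cell-like, 7 of 78 mature dendritic cell-like and 2 of 32 neutrophil-like cells. For plasma cell-like cells this was 100 of 747. In the 43 control mature dendritic cell-like cells, 15 had a C1qa UMI and none had more than 2. A C1qa UMI was seen in 5.90% of vancomycin and 5.26% of control T cell-like cells. The shares in natural killer-like cells, which should lack the gene, were 2.88% and 1.25% at median depths of 4032 and 5369 UMIs, against 4142 and 5136.5 UMIs in T cell-like cells. With every cell thinned to 1000 UMIs, the T cell-like shares were 3.42% and 1.94% and the natural killer-like counts 1 of 104 cells and 0 of 80 cells, which allows up to 3.75%. Among T cell-like cells without a single UMI of another type's marker (204 and 199 cells, a choice made after the data were seen), C1qa was at 3.06 and 8.10 CPM. The same choice left 34 of 4172 oligodendrocyte-like cells with 19 C1qa UMIs, at 571 CPM (344 to 892), above the 138 CPM of the whole type. The others of the 3765 and 1844 T cell-like cells had at least 1 such UMI.

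C4b, the classical pathway component on which C2 assembles, was highest in cells of the oligodendrocyte lineage. It lies on chromosome 17 from 34728380 to 34743882. In the vancomycin library it was highest in oligodendrocyte-like cells at 339 CPM (333 to 344), followed by border-associated macrophage-like cells at 256 CPM, oligodendrocyte precursor-like cells at 199.96 CPM, microglia-like cells at 144 CPM and astrocyte-like cells at 121 CPM. The last 2 overlapped in their intervals. In the control library precursor-like cells led with 307 CPM (259 to 360) and microglia-like cells followed with 93.9 CPM. Oligodendrocyte-like cells alone held 76.8% of all C4b UMIs of the vancomycin library, and microglia-like cells held 62.4% of those of the control library, where oligodendrocyte-like cells were missing. C4a, a near-identical gene on the same chromosome (34809092 to 34823464), had 33 UMIs in vancomycin and 9 in control cells, where C4b had 20889 and 883. How reads that fit both genes were counted is not given, so C4b levels are uncertain to that extent.

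Oligodendrocyte-like cells differed among themselves in C4b. Of 4172 cells, 2056 had a C4b UMI (49.3%), and the 652 with 10 or more held 66.0% of the UMIs. The natural killer-like share was 0.962% in that library, at a median depth of 4032 UMIs, against 9940 UMIs in oligodendrocyte-like cells. After thinning to 1000 UMIs the share was 22.8%, against 0 of 104 natural killer-like cells, which allows up to 2.88%. Precursor-like cells had C4b in 53.1% of vancomycin and 78.0% of control cells, at median depths of 6720 and 10075.5 UMIs, and in 17.2% and 27.1% after thinning.

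C3, the component on which all pathways converge (chromosome 17, 57203970 to 57228136), was highest in monocyte-like and microglia-like cells among the types of at least 50 cells in the vancomycin library. It stood at 268 CPM in the 65 monocyte-like cells and at 115 CPM in microglia-like cells, and then at 79.8 CPM in mature dendritic cell-like, 55.5 CPM in border-associated macrophage-like and 49.0 CPM in astrocyte-like cells. The astrocyte value rests on 28 UMIs, 16 of them in 1 cell. The 32 and 13 neutrophil-like cells, too few to be ranked, had 189 CPM (112 to 299) and 175 CPM. In the control library fibroblast-like cells came first at 114 CPM and microglia-like cells second at 27.9 CPM. The fibroblast value rests on 72 UMIs in 7 of 98 cells. The 18 control monocyte-like cells, too few to be ranked, had 340.1 CPM. No cluster carried the monocyte name, so this type rests on the marker gate alone. Unplaced cells held 45.9% of all C3 UMIs in the vancomycin library and 29.3% in the control library, more than any placed type in the vancomycin library.

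Cfb encodes factor B (chromosome 17, 34856374 to 34862518). Its level was 458 CPM in monocyte-like cells, 198 CPM in mature dendritic cell-like cells and 171 CPM in microglia-like cells of the vancomycin library, and the last 2 overlapped. Few cells carried the first of these values, since 26 of 65 monocyte-like cells had a Cfb UMI and 4 with 10 or more held 58.0% of the 193 UMIs. One mature dendritic cell-like cell held 40 of 124 UMIs. In control microglia-like cells Cfb was at 33.2 CPM, the highest of the 6 types. Types too few to be ranked there were the 18 monocyte-like cells, with 32 Cfb UMIs among 185233, 29 of them in 1 cell. The 43 mature dendritic cell-like cells had 34 among 280412, 28 of them in 1 cell. In the vancomycin library unplaced cells held 37.8% of all Cfb UMIs and microglia-like cells 32.8%. C2, the factor of the classical pathway that takes the same place as factor B, adjoins Cfb on the chromosome, and an annotated gene, Gm20547, overlaps Cfb and is not among the genes counted. Cfb was at or below 21.6 CPM in every other type of at least 50 cells of the vancomycin library.

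Serping1, the C1 inhibitor gene (chromosome 2, 84765387 to 84775444), was highest in fibroblast-like cells. They had 873 CPM in the vancomycin library (211 cells, 825 to 924) and 1258 CPM in the control library (98 cells, 1172 to 1349), and 87.7% and 83.7% of the cells had a UMI. The natural killer-like shares were 1.92% and 0 of 80 cells, which allows up to 3.75%. Astrocyte-like cells followed in the vancomycin library with 185 CPM, then microglia-like cells with 52.0 CPM and oligodendrocyte-like cells with 44.5 CPM. The 34 pericyte-like cells of that library, below the minimum for ranking, had 471 CPM. Among oligodendrocyte-like cells 74 cells with 10 or more UMIs held 55.4% of the Serping1 UMIs. C1q and its inhibitor were thus highest in different types, and their correlation over the 22 combinations was r = -0.02 for C1qa.

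The receptors followed the macrophages. C3ar1 (chromosome 6, 122847138 to 122856161) was at 434 CPM in border-associated macrophage-like cells and 294 CPM in microglia-like cells of the vancomycin library, and at 1067 CPM in control microglia-like cells. C5ar1 (chromosome 7, 16246743 to 16259540) was at 360.1 and 111 CPM in the 2 vancomycin types and at 397 CPM in control microglia-like cells. Every other type of at least 50 cells was at or below 49.8 CPM for both receptors. Neutrophil-like cells, few in both libraries (32 and 13), had C5ar1 at 484 and 786 CPM. C5ar1 is well known as a receptor of neutrophils. The receptor patterns correlated at r = 0.962 over the 22 combinations.

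Vancomycin and control microglia-like cells differed in 5 of the 9 genes by at least 2-fold, 3 higher and 2 lower. Ratios compare log2(CPM + 10). Among all 9931 genes measured in this type (at least 50 UMIs over both libraries), 2.65% lay 2-fold or more above control and 2.23% lay 2-fold or more below it, and the median log2 ratio was 0.02. The median of the 9 complement genes was 0.56.

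Cfb had 171 CPM in vancomycin and 33.2 CPM in control microglia-like cells. The vancomycin level was 5.15 times the control level (4.42 to 6.02), a log2 ratio of 2.07. The Cfb UMIs came from 277 of 897 vancomycin and 81 of 856 control cells. In the vancomycin library 34 cells with 10 or more Cfb UMIs held 40.0% of them. C3 had 115 CPM in vancomycin and 27.9 CPM in control cells, a ratio of 4.12 (3.48 to 4.90) and a log2 ratio of 1.72. Its UMIs came from 219 vancomycin and 80 control cells, and 19 vancomycin cells with 10 or more held 34.8% of those in that library. Serping1 had 368 UMIs and 52.0 CPM in vancomycin microglia-like cells, against 17 UMIs and 2.897 CPM in control cells, a ratio of 17.9 (11.1 to 31.1). The Serping1 UMIs came from 109 of 897 vancomycin and 11 of 856 control cells. In the vancomycin library 8 cells with 10 or more held 27.7% of them. Cfb, C3 and Serping1 are a factor, a central component and a regulator, and all 3 were higher. C4b, with 144 and 93.9 CPM, was 1.53 times the control level (1.378 to 1.701) and stayed under 2-fold.

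The receptors went the other way. C3ar1 had 294 CPM in vancomycin and 1067 CPM in control microglia-like cells, 0.275 times the control level (0.262 to 0.289) and a log2 ratio of -1.83. C5ar1 had 111 and 397 CPM, 0.280 times the control level and a log2 ratio of -1.75. Nearly the same share of cells had a C3ar1 UMI, 70.9% of vancomycin and 73.0% of control cells, but only 18 of 897 vancomycin cells had 10 or more UMIs, against 297 of 856 control cells. Median depths were close, at 6761 and 6396.5 UMIs, and after thinning to 1000 UMIs the shares were 22.2% and 48.0%. For C5ar1 the thinned shares were 8.71% and 22.4%. Both receptors were at 0 UMIs in all natural killer-like cells of both libraries.

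**Figure D2:**
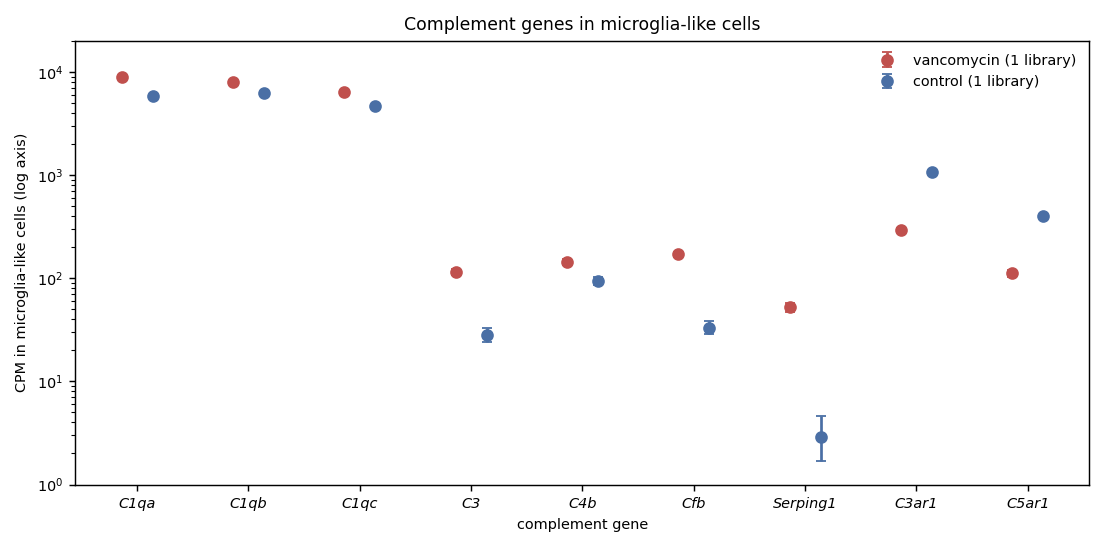
Levels (CPM, log axis) of the 9 genes in microglia-like cells, vancomycin left of control, with 95% counting intervals and 1 library per group. C3, Cfb and Serping1 were higher and C3ar1 and C5ar1 lower in the vancomycin library, and the C1q chains differed by less than 2-fold.

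The microglia-like gate was checked in both libraries. The 8 microglia markers summed to 2913 CPM in vancomycin and 3535 CPM in control cells, with 0 of 8 at 0. The 10 markers of border-associated macrophages summed to 46.9 and 95.6 CPM, with Lyve1 at 0 in both. The 9 monocyte markers summed to 72.6 CPM in vancomycin and 21.1 CPM in control cells, with Chil3, Hp and Ace at 0 in both. The 8 plasma cell markers, none at 0, summed to 216 and 67.5 CPM, and the 8 mature dendritic cell markers to 184 and 395 CPM. Their part in the ratios was not tested. Over all microglia-like cells C3, Cfb, C3ar1 and C5ar1 stayed at least 2-fold apart in 13 of 13 alternatives, types taken from clusters made without complement genes among them.

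Within microglia-like cells, the components and the inhibitor were found where MHC class II RNA was high. This split was chosen after the data were seen, at 10 UMIs of MHC class II genes per 10000. It is a range of a continuous score, with 50 vancomycin and 61 control cells between 5 and 20. By this cut 588 of 897 vancomycin cells (65.6%) and 229 of 856 control cells (26.8%) were MHC class II high. C3 was at 152 CPM in high and 3.98 CPM in low vancomycin cells, and at 71.1 and 6.85 CPM in control cells. Cfb was at 227 and 2.84 CPM in vancomycin cells and at 95.5 and 2.79 CPM in control cells. C4b was at 187 and 13.1 CPM in vancomycin cells and at 251 and 17.2 CPM in control cells. Serping1 was at 68.6 and 1.71 CPM in vancomycin cells and at 8.83 and 0 CPM in control cells. High cells held 807 of the 814 C3 UMIs of vancomycin and 137 of the 164 of control microglia-like cells, and 1206 of 1211 and 184 of 195 Cfb UMIs. Over all genes, 2.39% in the vancomycin and 1.43% in the control library were at least 2-fold higher in high cells. The receptors differed less by the split. C3ar1 was at 295 CPM in high and 289.9 CPM in low vancomycin cells, and at 980.1 and 1109 CPM in control cells. C5ar1 was lower in high cells of both libraries, at 105 and 128 CPM in vancomycin and at 315 and 437.5 CPM in control cells. High cells were also deeper, with medians of 8302 against 5514 UMIs in the vancomycin and 7538 against 6008 UMIs in the control library.

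**Figure D3:**
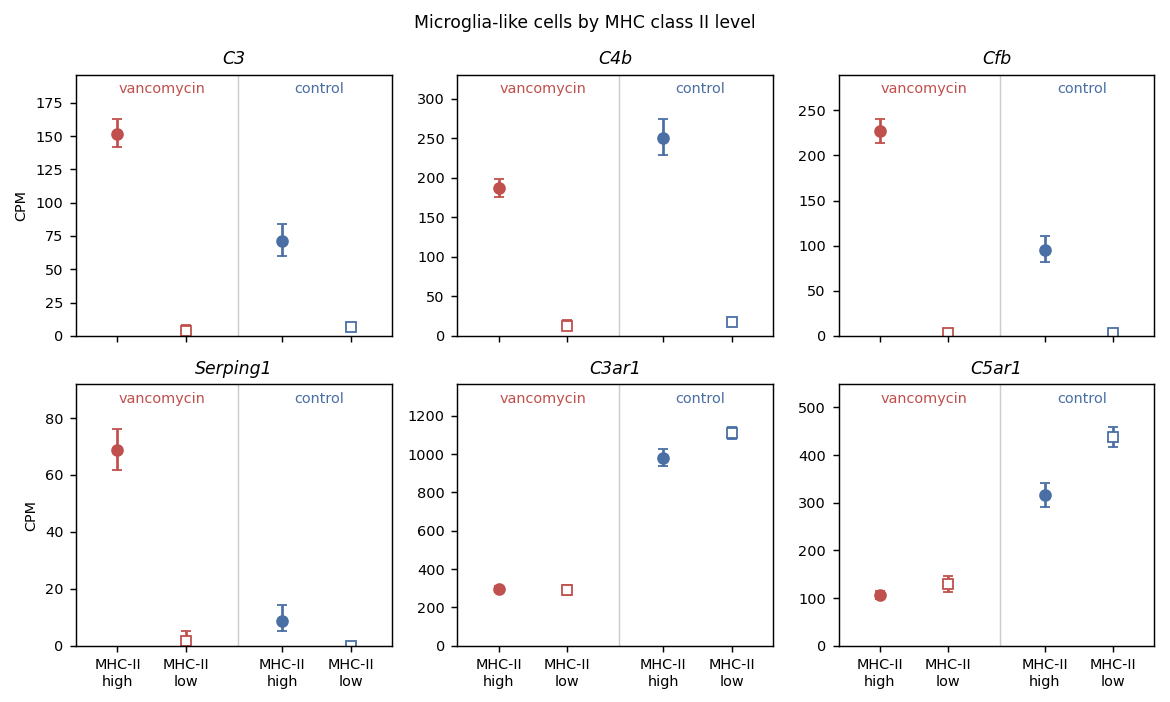
Levels (CPM) of 6 complement genes in microglia-like cells with at least 10 MHC class II UMIs per 10000 (high, filled) and with fewer (low, open), vancomycin left and control right, with 95% counting intervals. C3, C4b, Cfb and Serping1 were at or below 17.2 CPM in low cells of both libraries, and C3ar1 and C5ar1 were lower in the vancomycin library in both ranges.

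The ratios were therefore also taken within each range. Among high cells Cfb was 2.37 times and Serping1 7.78 times the control level, both at least 2-fold apart on the log2 scale with 10 CPM added, where 2.73% of all genes were higher and 2.23% lower. C3 was 2.13 times the control level (1.78 to 2.58), and with 10 CPM added its log2 ratio of 0.995 was just short of 2-fold. C4b was at 0.745 times the control level (0.668 to 0.833) in high cells and at 0.758 times in low cells (0.451 to 1.23). Over all microglia-like cells together C4b was above control. In low cells its direction depended on the cut. With the cut at 50, also chosen after the data were seen, C4b was 1.47 times the control level in low cells (1.06 to 2.03). It was at 0.682 times in high cells at that cut. C3ar1 and C5ar1 were lower in both ranges, at 0.301 and 0.335 times the control level in high cells and at 0.261 and 0.294 times in low cells. Among low cells 2.47% of all genes were at least 2-fold lower. In low cells C3 had 7 UMIs in the vancomycin and 27 in the control library, Cfb 5 and 11, and Serping1 3 and 0, and these were not compared. C1qa was at 9885 CPM in high and 6323 CPM in low vancomycin cells, and at 7383 and 5006 CPM in control cells. Its ratio to control was 1.34 in high and 1.26 in low cells, against 1.56 over all microglia-like cells. For C1qb the ratios in high and low cells were 1.18 and 1.16, and for C1qc 1.31 and 1.24.

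In the other 5 types the members at least 2-fold apart rested on few cells or few UMIs. T cell-like cells had 3 of 9 members at least 2-fold higher, the C1q chains, where 2.28% of all genes were, and 0 lower, where 1.19% were. In T cell-like cells without a UMI of another type's marker no member had 50 UMIs over both libraries, so none could be counted. Precursor-like cells had 4 of 7 measured members higher, where 5.08% of all genes were, namely the C1q chains and C3ar1, and 0 lower, where 2.26% were. C3ar1 had 78 UMIs in vancomycin and 0 in control cells, at least 1.71-fold higher with 3 counts assumed over the control group, while the exact interval of the ratio begins at 1.36. With those 3 counts and 10 CPM added its log2 ratio was 0.35, under 2-fold. C1qa had 1110 UMIs in vancomycin and 0 in control precursor-like cells, which makes the vancomycin level at least 24.4-fold higher on the same assumption, and the exact interval begins at 19.8. These UMIs came from 48 of 973 cells (4.93%), against 0 of 50 control cells, which allows up to 6.00%, so a difference in share was not detectable at this number of cells. With called doublets left out, the count in precursor-like cells was 1. Doublets were called in 493 vancomycin cells (3.13%) and in 0 control cells, so leaving them out changed the vancomycin library only. Whether the caller worked in the control library was not checked. Plasma cell-like cells had 3 of 9 higher and 1 lower, where 2.50% and 1.07% of all genes were. C1qa was 2.39 times the control level there, and C3ar1 was at 8.25 CPM in vancomycin and 32.0 CPM in control cells. C3 and Cfb had 188 and 198 UMIs in vancomycin and 0 in control plasma cell-like cells, at least 8.08-fold and 8.505-fold higher, with exact intervals that begin at 6.503 and 6.85. With 3 control counts in place of 0 and 10 CPM added, their log2 ratios were 0.91 and 0.95, under 2-fold. Natural killer-like cells had no member with 50 UMIs over both libraries.

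Fibroblast-like cells had 1 of 5 measured members at least 2-fold lower, where 2.52% of all genes were, and 0 higher, where 2.45% were. C3 was at 18.8 CPM in vancomycin and 114 CPM in control cells, 0.164 times the control level (0.101 to 0.261). Its UMIs came from 11 of 211 and 7 of 98 cells. The count of lower members was 0 after thinning, where C3 was under the minimum of 50 UMIs. C3 stayed at least 2-fold lower in 11 of the 12 alternatives where it was measured. Serping1 was at 0.694 times the control level (0.634 to 0.760). In precursor-like cells C4b was at 199.96 CPM in vancomycin and 307 CPM in control cells, 0.652 times the control level (0.550 to 0.779), and the control value rests on 50 cells.

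**Figure D4:**
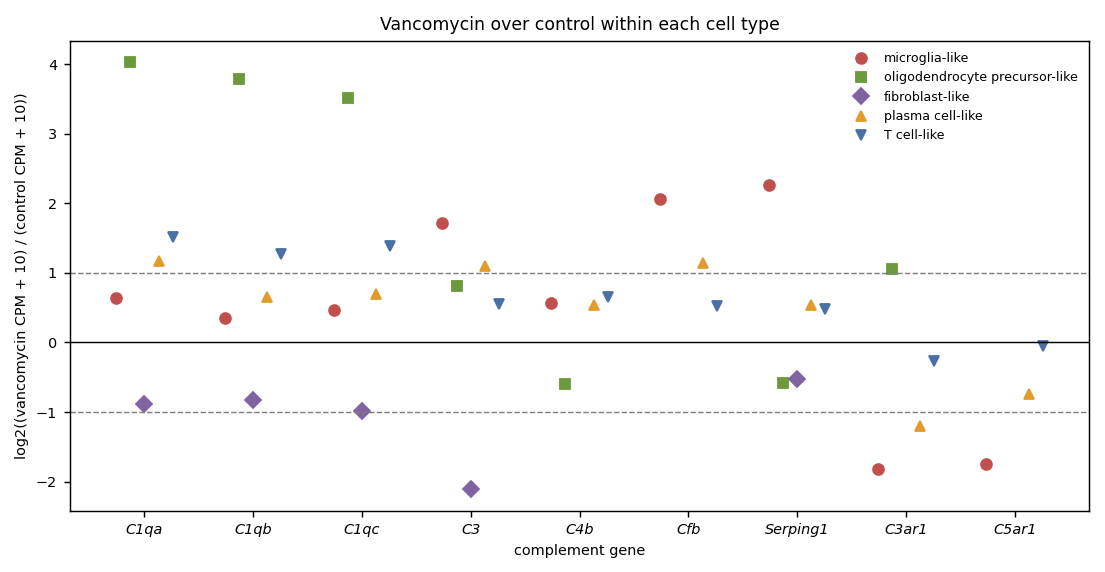
Log2 ratio of vancomycin over control CPM, 10 CPM added to each, for each measured gene in 5 cell types (natural killer-like cells had none measured); dashed lines mark 2-fold. Microglia-like cells had C3, Cfb and Serping1 above the upper line and both receptors below the lower one, and the high C1q values of oligodendrocyte precursor-like cells rest on few cells, 48 of 973 vancomycin cells for C1qa.

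A list of 17 genes of the response to interferon gamma and one of 12 acute phase genes were read beside the complement genes. In microglia-like cells 11 of 17 interferon gamma genes reached 2-fold above control and 0 reached 2-fold below, and their median log2 ratio was 1.21, where 2.65% of all genes were higher and 2.23% lower. Cxcl9, a chemokine gene, was at 677 and 77.0 CPM, Iigp1, a GTPase of cell-autonomous defence, at 225 and 26.8 CPM, and Irf1, a transcription factor, at 423 and 116 CPM. Of the 7 measured acute phase genes 2 were higher, Saa3 (710 UMIs in vancomycin and 0 in control cells) and Cebpd, and 1 lower, Socs3. In fibroblast-like cells 5 of 13 interferon gamma genes were lower (Irf1, Gbp2, Iigp1, Irgm1 and Cxcl10) and 0 higher, where 2.52% and 2.45% of all genes were. Of 7 acute phase genes there, 1 was lower, Socs3. In precursor-like cells 4 of 17 were higher (Gbp2, Cxcl9, Cxcl10 and Psmb9) and 3 lower (Irf1, Iigp1 and Irgm1), where 5.08% and 2.26% of all genes were, and Cxcl9 had 0 control UMIs. Of 7 acute phase genes there, 0 were higher and 3 lower (Stat3, Socs3 and Cebpd). T cell-like cells had 2 of 17 interferon gamma genes higher (Iigp1 and Cxcl9), where 2.28% of all genes were, and 0 of 7 acute phase genes apart. Plasma cell-like cells had 1 of 17 higher (Cxcl9, with 0 control UMIs), where 2.50% were, and 0 of 6 apart. Natural killer-like cells had 1 of 11 higher (Psmb9) and 1 lower (Cxcl10), where 3.82% and 5.57% of all genes were, and 0 of 3 acute phase genes apart.

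In oligodendrocyte-like cells of the vancomycin library, cells with 10 or more C4b UMIs (652) were set against those with 0 (2116). These cells were picked by C4b itself, so the values are a description. Of the 17 interferon gamma genes 14 were at least 2-fold higher, where 1.61% of all 12300 genes were, and the median log2 ratio was 3.53 against -0.02 over all genes. Iigp1 was at 937 CPM in C4b-high and 14.0 CPM in C4b-0 cells. Serping1 was at 152 and 4.43 CPM, so the inhibitor gene was higher where C4b was. Among the acute phase genes 5 of 8 measured were higher, Serpina3n at 1668 and 153 CPM among them. The 3 interferon gamma genes under 2-fold were Cxcl9, Cxcl10 and Ciita. C4b-high cells had a median of 14246 UMIs and C4b-0 cells 8913.

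**Figure D5:**
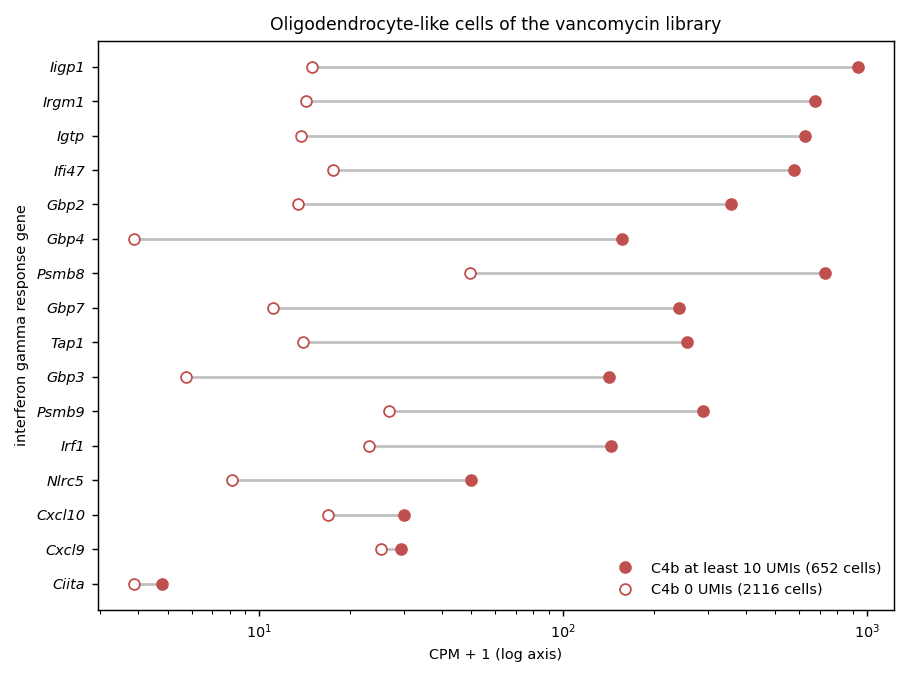
Levels (CPM + 1, log axis) of genes of the interferon gamma list in oligodendrocyte-like cells of the vancomycin library with at least 10 C4b UMIs (filled, 652 cells) and with 0 (open, 2116 cells). The filled points lie at least 2-fold to the right of the open ones for every gene shown except Cxcl9, Cxcl10 and Ciita.

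In precursor-like cells of the vancomycin library with a C4b UMI (517) against none (456), 14 of 17 interferon gamma genes were likewise at least 2-fold higher, where 1.44% of all genes were, and 2 of 7 acute phase genes were. In microglia-like cells with a Cfb UMI against none, 7 of 17 were higher in the vancomycin library (277 and 620 cells) and 10 of 15 in the control library (81 and 775 cells), where 1.38% and 1.39% of all genes were. The acute phase genes did not go with Cfb in this way, with 1 of 7 higher in the vancomycin and 0 of 5 in the control library and median log2 ratios of -0.32 and -0.64. C3 was at 218 CPM in Cfb-positive and 27.3 CPM in Cfb-negative vancomycin cells, and at 108 and 12.9 CPM in control cells. C3 was thus higher in cells with Cfb in both libraries. C3ar1 was at 289 CPM in Cfb-positive and 298 CPM in Cfb-negative vancomycin cells. Cfb-positive cells were deeper, with medians of 11187 against 5749.5 UMIs in the vancomycin and 11256 against 5972 UMIs in the control library.

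Of 59 further complement genes 21 had fewer than 50 UMIs in all kept cells, 5 of them with 0. Of the other 38, 37 had UMIs in a type of at least 50 cells, and 8 of these were highest in fibroblast-like, 7 in oligodendrocyte precursor-like and 6 in microglia-like cells. Among initiators, the highest were Colec12, a scavenger receptor with a collectin domain, at 398 and 458 CPM in fibroblast-like cells, and Cfp, which encodes properdin, at 433 CPM in vancomycin type 2 dendritic cell-like cells. The C1q-bound protease genes C1ra and C1s1 were also highest in fibroblast-like cells, with C1s1 at 101 and 276 CPM. Among further components C7, of the membrane attack complex, was at 191 and 254 CPM there, and C2 at 53.8 CPM in vancomycin microglia-like cells. Among regulators Clu, a secreted chaperone that blocks membrane attack, was at 4875 CPM in vancomycin astrocyte-like cells. Among receptors Lrp1 was at 447 and 589.6 CPM in fibroblast-like cells, and Itgam, the alpha chain of complement receptor 3, at 282 and 553 CPM in microglia-like cells.

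Few of these genes were 2-fold apart. In microglia-like cells, where 2.65% of all genes were at least 2-fold higher, 1 of 17 measured was, namely C2. It was at 53.8 CPM in vancomycin and 11.9 CPM in control cells, 4.51 times the control level (3.49 to 5.91), the same direction as Cfb. In precursor-like cells 5 of 21 were higher, namely Csmd1 and Csmd3, membrane proteins with complement control domains, at 628 and 503.98 CPM in vancomycin and 164 and 132 CPM in control cells, Csmd2, Cfp and Itgb2, where 5.08% of all genes were. Cfp and Itgb2 had 0 UMIs in the 50 control cells, and with 3 control counts their log2 ratios were 0.79 and 0.76, under 2-fold. The libraries were counted with different versions of Cell Ranger, which differ in whether intron reads are counted by default, and the part of this in the values of Csmd1 and Csmd3 was not tested. In fibroblast-like cells 2 of 15 were higher, Cfp and Vtn, and 2 lower, C1s1 and Cd55, where 2.45% and 2.52% of all genes were. Cfp rests on 50 UMIs in vancomycin and 1 in control cells. C1s1 was at 0.366 times the control level and Vtn, which encodes vitronectin, at 3.07 times. Plasma cell-like cells had 2 of 13 genes higher, where 2.50% of all genes were. These were Cfp, with 261 UMIs in vancomycin and 1 in control cells, and C2, with 169 and 0, whose log2 ratio with 3 control counts was 0.83. Natural killer-like cells had 1 of 6 lower, Itgam, with 18 and 43 UMIs, where 5.57% of all genes were. T cell-like cells had 0 of 16 apart, where 2.28% of all genes were higher and 1.19% lower.

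Genes with the most similar pattern were sought among 5271 genes over the 22 combinations of type and library. C1qa came nearest to Ccl12 (r = 0.944), Trem2 and Csf1r, and C1qb and C1qc to the same 3 genes. C3ar1 came nearest to Csf1r (r = 0.970), Trem2 and Cx3cr1, and C5ar1 to Slc11a1 (r = 0.957), Adgre1 and Trem2. Cfb came nearest to Il1rn (r = 0.902), Ly6i and Cxcl9, and C3 to Pdlim4 (r = 0.806), Nupr1 and Axl. C4b came nearest to Scamp5 (r = 0.916), Ppp1r9a and Dst, and Serping1 to C1ra (r = 0.947), Fbln1 and Loxl1. The points share libraries, so r is a description.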

How the data were processed

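Both libraries were deposited by the authors as UMI counts for each gene and barcode, not normalized. The file headers name Cell Ranger 7.2.0 for vancomycin and 6.0.1 for control, and the submitters' processing notes list mm10 and Partek. The sources used here do not say whether intron reads were counted (by default version 7.2.0 counts them and 6.0.1 does not), how cells were called or whether doublets were removed. The part of the versions in the ratios was not tested. The labels' protocols also describe dura, collected separately from the nerves, and the tissue label of both libraries is optic nerve.

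Cells kept had at least 500 UMIs, 200 genes and at most 20% mitochondrial UMIs (870 vancomycin and 164 control barcodes were left out). A cell was placed in the type with at least 3 of its markers detected and a lead of 2 over the next type. Cells with too few markers (1397 and 657) or markers of 2 types (1508 and 200) stayed unplaced, of which 579 and 362 fell in microglia clusters. UMIs were summed per type and scaled to CPM. A ratio was taken where a gene had 50 UMIs over both libraries, as log2 with 10 CPM added, and called 2-fold from 1. Intervals are exact Poisson for levels, Clopper-Pearson for shares and exact conditional for ratios. The limit that a count of 0 allows is 3 divided by the total. Log2 ratios and 2-fold calls keep a control level of 0 with 10 CPM added, and 3 counts over the group stand in for it in each "at least" fold and where stated. Doublets stayed in and were left out as an alternative (Scrublet). Clusters (Leiden, resolution 1.0, 2000 variable genes, 30 components, 15 neighbours) were made without complement genes. Of the gene identifiers 32158 of 32285 matched GENCODE M21. The ratio step was tested on simulated counts. Python 3.11.15, scanpy 1.11.5, scipy 1.17.1, R 4.3.3, edgeR 4.0.16 and DESeq2 1.42.0 (the last 2 for scaling only) were used.

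The rule was to name all 9 genes wherever measured. Of the further complement genes it named the 2 highest of each role and up to 3 per type at least 2-fold apart. In precursor-like and fibroblast-like cells more than 3 are named. In types other than microglia-like cells not every measured ratio of the 9 genes is given. Other genes named, those of the interferon gamma and acute phase lists included, were picked after their values were seen. Some results that this rule would name are not reported here. The genes and lists were chosen with earlier results of these data known. With 1 library per group, p-values were not computed.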

Additional observations from a re-analysis of the deposited data

Results flagged for a closer look

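C3 differed in opposite directions between cell types. Its log2 ratio of vancomycin over control was 1.72 in microglia-like cells and 1.10 in plasma cell-like cells, where control had 0 UMIs, against -2.11 in fibroblast-like cells. The difference between types was not tested, since each group is 1 library. In microglia-like cells 219 of 897 vancomycin and 80 of 856 control cells had a C3 UMI, in fibroblast-like cells 11 of 211 and 7 of 98.

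C3ar1 was lower in vancomycin microglia-like cells (-1.83) and plasma cell-like cells (-1.20) and higher in oligodendrocyte precursor-like cells (1.06), where control had 0 UMIs in 50 cells. With 3 counts assumed over the control group the last ratio was 0.35 on the log2 scale, under 2-fold. The plasma cell-like values rest on 136 UMIs in 36 of 747 vancomycin and 68 UMIs in 7 of 91 control cells. Of the control cells 3 held 76.5% of those UMIs. The difference between types was not tested either.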

How the results depend on the processing

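In microglia-like cells C3, Cfb, C3ar1 and C5ar1 stayed at least 2-fold apart in 13 of 13 alternatives, and Serping1 in 11 of 12, with 0.95 as its lowest log2 ratio. The C1q chains were 2-fold apart there in 0 of 13, and their log2 ratios turned to -0.71 (C1qa), -0.61 (C1qb) and -0.58 (C1qc) when the median ratio of the same gene in the other types was taken off. The gate without other types' markers left too few microglia-like cells for this check and is not among these alternatives. Over all alternatives the 39 ratios gave 461 values, of which 310 moved little and 150 moved further. Of the 39 ratios 13 changed sign in at least 1 alternative, and Cfb in T cell-like cells, at 0.53, ranged down to -1.07. Among those called 2-fold apart 1 changed sign, Cfb in plasma cell-like cells, to -0.16 with the other types' median taken off. The order of the highest over the second highest type was recomputed in the same way for each gene and library. Of these 188 values 124 moved little. Among those whose intervals did not overlap 1 reversed, Cfb in control microglia-like over fibroblast-like cells, at -0.16 when thinned. Lower ranks were not checked. Counts of members 2-fold apart were less stable in the other types. T cell-like cells had 3 higher, but 7 with 1 CPM added. They had 1 with types from clusters, cells weighted equally, 50 CPM added or the other types' median taken off. With that median off, 1 was lower against 0. Among T cell-like cells without markers of another type no member had 50 UMIs over both libraries, so none could be counted. Plasma cell-like cells had 3 higher and 1 lower, but 6 and 0 from clusters. They had 5 and 2 with edgeR TMM scaling, DESeq2 scaling or 1 CPM added. With 50 CPM added or the median off they had 0 and 0. Their count of lower members was 0 when thinned, where C3ar1 was under the minimum of UMIs. Precursor-like cells had 4 higher and 0 lower, but 1 higher without doublets and 2 lower with the median off. Fibroblast-like cells had 1 lower, but 4 from clusters or with cells weighted equally and 3 without doublets. They had 2 with 1 CPM added or no minimum of UMIs, and 5 with the median off. Their count was 0 when thinned, where C3 was under the minimum of UMIs. The cause was not tested. The gate without other types' markers and the MHC class II cuts at 5 and 50 were chosen after seeing the data. At the cuts of 5 and 50 C3 in MHC class II high cells had log2 ratios of 1.08 and 0.93. C4b in low cells was at 0.676 and 1.47 times the control level at these cuts, in opposite directions. No paired analysis was possible because each group is 1 library. The control library has few cells of some types, 50 precursor-like and 98 fibroblast-like.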
